A study of Mus musculus with 4 samples.

Results

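The genes described here encode the cohesin complex, its loader and ring-bound regulators, and the boundary factor Ctcf. They were the rows of the 4 count tables whose symbol was Smc1a, Smc3, Rad21, Stag1, Stag2, Nipbl, Pds5a, Pds5b or Ctcf, with the transcript of the highest total count used for each symbol. These were 9 genes of 24016 symbols in the tables, and all 9 were among the 14853 genes that passed a filter on low counts and were tested. RNA was sequenced from hematopoietic stem cells (HSCs) sorted from the bone marrow of C57BL/6 mice at 4 months of age, with 2 libraries from NHD13 mice and 2 from wild-type (WT) mice. NHD13 mice carry a transgene for a fusion of the nuclear pore gene NUP98 with the homeobox gene HOXD13, driven in blood cells by Vav1 regulatory elements, and develop a disease like human myelodysplastic syndrome. Cells of both genotypes were sorted by the same surface markers, as lineage-negative Sca-1+ c-Kit+ cells that carried CD150 and lacked both Flt3 and CD34. The comparison asked how the transcriptome of sorted NHD13 HSCs differed from that of WT HSCs.

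Cohesin is a ring that entraps DNA. Smc1a and Smc3 encode the long arms of the ring, Rad21 the kleisin that closes it, and Stag1 and Stag2 the alternative subunits that bind the kleisin. Nipbl loads the ring and drives loop extrusion, Pds5a and Pds5b bind the ring and take part in both its release and its protection, and Ctcf is the zinc finger protein at which extruding cohesin stops. Besides holding sister chromatids together until mitosis, the complex shapes the loops that join enhancers to promoters. Cohesin genes, STAG2 most often, are recurrently mutated in human myelodysplastic syndrome and acute myeloid leukemia, and in mice loss of cohesin function alters HSC self-renewal.

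None of the 9 genes passed an adjusted p of 0.05 by edgeR's quasi-likelihood test in NHD13 against WT HSCs, where 4.28 percent of all genes tested did, 2.07 percent higher and 2.22 percent lower. DESeq2 called 2 of them, Rad21 and Nipbl, where it called 17.5 percent of all genes tested, and limma-voom called 0, against 4.17 percent of all genes. The log2 fold changes of the 9 genes lay between -0.06 and 0.38, with a median of 0.28, against a median of 0.00132 over all genes tested. Of these fold changes 8 were above 0, as were 50.1 percent of all genes tested, and 4 had an unadjusted p under 0.05, against 26.8 percent of all genes tested. Those 4, Rad21, Nipbl, Pds5a and Stag1, were all higher in NHD13, as were 12.9 percent of all genes tested at that p. The cohesin arm gene Smc1a was the exception in sign. All 9 of the 95% intervals lay between -0.31 and 0.65 on the log2 scale, so neither a halving (-1) nor a doubling (1) was within the interval of any of them.

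Libraries held 35025974 and 48423689 counts in NHD13 and 42664018 and 37070939 in WT with 1 transcript per gene, and libraries of a group differed by more than counting noise (mean chi-square per gene 59 in NHD13 and 34.6 in WT, where counting noise alone gives about 1). Whether they came from different animals is not given, so the p-values speak only to how these libraries vary. Xist and the Y-linked Ddx3y were both detected in every library, so each held material of female and male origin. Libraries of a group differed in it, with Xist at 665 and 392 CPM in NHD13 and 104 and 276 CPM in WT. The technical part of the spread was not tested. Of the transgene's partner genes, mouse Hoxd13 had 65 and 78 counts in NHD13 and 14 and 3 in WT, while Nup98 had a log2 fold change of 0.02 ± 0.08 (SE); how reads of the human transgene align was not measured. The sort genes were detected in every library, Kit at 991 and 1120 CPM in NHD13 and 1130 and 1270 CPM in WT, and Slamf1, which encodes CD150, at 143 and 117 CPM in NHD13 and 119 and 134 CPM in WT. Ly6a, which encodes the sort marker Sca-1, was at 131 and 77.7 CPM in NHD13 and 273 and 200 CPM in WT, so the groups did not overlap (log2 -1.18 ± 0.30, adjusted p 0.0921). Of 12 HSC markers 4 fell, Mllt3, Ctnnal1 and Hlf among them, and 0 rose, and their summed level was 2380 and 2860 CPM in NHD13 and 4200 and 4380 CPM in WT. Cd48, a surface marker of progenitors that was not part of the sort, rose to 267 and 223 CPM in NHD13, against 4.83 and 5.06 CPM in WT (adjusted p 0.00147). Of 5 early granulocyte markers 4 rose, and the 5 summed to 1310 and 916 CPM in NHD13 and 351 and 337 CPM in WT. The remaining marker, Prtn3, was lower in both NHD13 libraries, at 229 and 165 CPM against 270 and 273 CPM in WT (adjusted p 0.171). Late granulocyte markers, with 8 of 8 detected in every library, summed to 2750 CPM in NHD13 library 1. They summed to 361 CPM in NHD13 library 2 and 317 and 273 CPM in WT. T and NK cell markers summed to 147 CPM in NHD13 library 2 and to 32.8 to 46.7 CPM in the other libraries, there mostly Klrb1c (29.4 to 44.8 CPM). In NHD13 library 2 Cd3e, Cd3g and Gzmb reached 36.3, 30.8 and 30.3 CPM. Cd3d and Gzma stayed at or below 0.736 CPM in every library. The 4 mast cell and basophil markers summed to 133 and 112 CPM in NHD13 and 9.15 and 7.01 CPM in WT. That sum was mostly Ms4a2 in NHD13 library 1 (111 CPM) and Cpa3 in NHD13 library 2 (107 CPM), and the 1 marker of the list that was called, Fcer1a, fell to 0 and 1 counts in NHD13, against 40 and 62 counts in WT (adjusted p 0.0444). The B cell, erythroid and stromal markers stayed at or below 130 CPM in every library. The part of these other cells in the results below was not tested, and in sorted bulk RNA more cells of a type and more RNA per cell cannot be told apart.

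Levels between genes were compared per kilobase of transcript, with lengths from the GENCODE M21 transcripts paired with the files' RefSeq accessions. Smc1a had the highest level in every library, at 90.4 ± 1.51 CPM per kb in NHD13 and 94.1 ± 8.59 CPM per kb in WT (SD, n = 2 each). Stag2 came next at 52.9 ± 5.58 CPM per kb in NHD13 and 43.8 ± 5.1 CPM per kb in WT, ahead of Smc3 at 41.3 ± 5.39 CPM per kb in NHD13 and 37.8 ± 1.6 CPM per kb in WT. The ranges of Stag2 and Smc3 did not overlap in either group, at 48.9 to 56.8 against 37.5 to 45.1 CPM per kb in NHD13 and 40.2 to 47.4 against 36.7 to 39 CPM per kb in WT. The other 6 genes were close together, between 17.3 and 21.9 CPM per kb in NHD13 and between 13.7 and 17.8 CPM per kb in WT, and their order was within the spread of the libraries for most neighbours. The kleisin gene Rad21, at 21.9 ± 1.22 CPM per kb in NHD13 and 16.8 ± 0.947 CPM per kb in WT, thus lay well below both arm genes at the RNA level. The lengths of the transcript models that the authors counted over were not used here, so these levels hold for the paired transcripts.

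**Figure D1:**
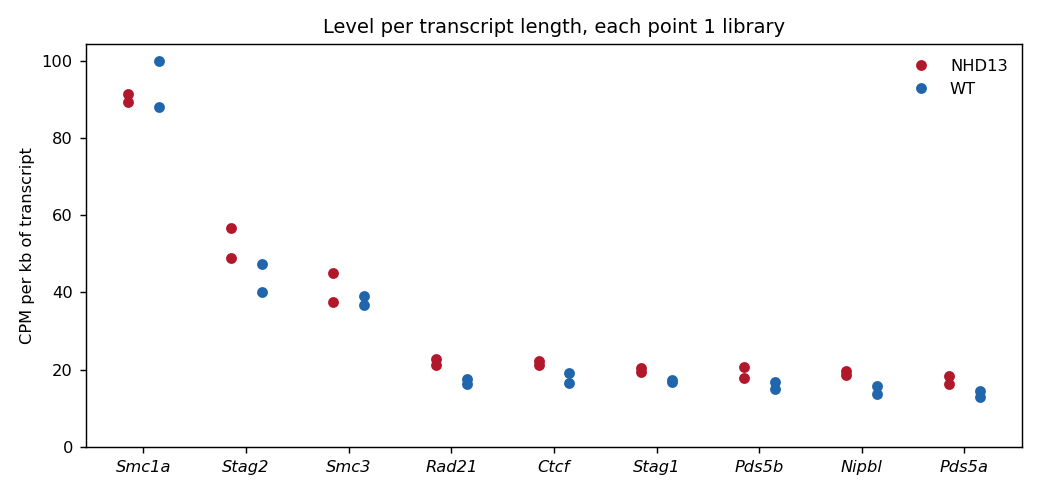
Level of each gene in CPM per kilobase of transcript (vertical axis, linear, from 0), each point 1 library, with NHD13 left of WT for each gene. Smc1a, Stag2 and Smc3 stand above the other 6 genes, which lie between 12.9 and 22.8 CPM per kb in the 4 libraries.

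Promoter windows were examined because 8 of the 9 genes leaned the same way. RefSeq windows of build GRCm38.p6, from 250 bases before to 50 bases after the start site, were found for 6 of the 9 genes, namely Smc1a, Smc3, Stag1, Pds5a, Pds5b and Ctcf. They were searched on both strands for 3 kinds of word, all chosen after the sequences were seen. Words of the E2F factors of S phase were TTGGCGC, its variant form TTCCCGC and a further form spelled TTCGCGC. The CHR word of mitotic promoters was TTTGAA, and the word of the factor YY1 was GCCATNTT. The windows of 3 members that leaned higher and of Smc1a follow, then those of Cdca5 and Ncapg, which were called higher, with the words in capitals on whichever strand they were found.
Stag1 (chr9:100643198-100643497, plus strand): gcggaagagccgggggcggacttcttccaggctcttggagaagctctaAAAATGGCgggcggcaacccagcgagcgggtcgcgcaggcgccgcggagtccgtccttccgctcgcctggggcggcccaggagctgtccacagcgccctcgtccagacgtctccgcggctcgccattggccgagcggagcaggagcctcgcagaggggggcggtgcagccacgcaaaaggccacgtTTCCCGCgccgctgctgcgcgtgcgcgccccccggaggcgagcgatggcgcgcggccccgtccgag
Pds5b (chr5:150673577-150673876, plus strand): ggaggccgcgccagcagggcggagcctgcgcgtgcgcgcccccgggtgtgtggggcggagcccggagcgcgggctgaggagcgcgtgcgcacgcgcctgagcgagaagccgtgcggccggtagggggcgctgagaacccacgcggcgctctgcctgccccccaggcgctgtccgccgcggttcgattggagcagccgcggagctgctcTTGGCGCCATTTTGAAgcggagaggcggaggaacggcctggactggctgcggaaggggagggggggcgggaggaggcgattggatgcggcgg
Ctcf (chr8:105636288-105636587, plus strand): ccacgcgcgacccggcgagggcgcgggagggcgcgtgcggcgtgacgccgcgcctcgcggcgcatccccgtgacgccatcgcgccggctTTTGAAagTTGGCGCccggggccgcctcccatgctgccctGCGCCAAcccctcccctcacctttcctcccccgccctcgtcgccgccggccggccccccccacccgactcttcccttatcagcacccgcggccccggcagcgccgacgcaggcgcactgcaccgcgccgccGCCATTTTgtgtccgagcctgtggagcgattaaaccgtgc
Smc1a (chrX:152016178-152016477, plus strand): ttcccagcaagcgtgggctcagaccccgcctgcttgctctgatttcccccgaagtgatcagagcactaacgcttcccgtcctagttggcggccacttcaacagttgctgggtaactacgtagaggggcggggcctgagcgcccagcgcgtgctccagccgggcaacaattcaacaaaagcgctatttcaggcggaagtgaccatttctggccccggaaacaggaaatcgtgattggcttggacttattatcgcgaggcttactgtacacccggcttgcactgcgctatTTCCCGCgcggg
Cdca5 (chr19:6084847-6085146, plus strand): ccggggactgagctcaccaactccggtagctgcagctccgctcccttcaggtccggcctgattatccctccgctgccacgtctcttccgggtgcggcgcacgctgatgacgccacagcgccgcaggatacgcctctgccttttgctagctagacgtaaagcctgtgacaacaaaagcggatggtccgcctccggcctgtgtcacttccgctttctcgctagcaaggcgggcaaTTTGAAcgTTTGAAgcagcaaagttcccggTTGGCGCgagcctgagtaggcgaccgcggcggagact
Ncapg (chr5:45669675-45669974, plus strand): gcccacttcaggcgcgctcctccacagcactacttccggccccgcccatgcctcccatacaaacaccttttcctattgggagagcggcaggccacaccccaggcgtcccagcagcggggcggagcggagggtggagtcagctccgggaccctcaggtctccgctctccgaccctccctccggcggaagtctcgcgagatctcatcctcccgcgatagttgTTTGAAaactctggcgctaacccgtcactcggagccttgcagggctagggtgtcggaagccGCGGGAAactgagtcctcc
An E2F word was present in 5 of the 6 member windows, all but that of Smc3. Among all 32851 windows 8.07 percent held one, and among the 11074 windows at least as GC-rich as the poorest member window (58.3 percent GC) 16.7 percent did. That poorest window was Smc1a, and the other member windows were at 65 to 80.3 percent GC. The 11074 windows are therefore not matched to the members in GC. A YY1 word was present in 4 member windows, those of Smc3, Stag1, Pds5b and Ctcf, against 6.05 percent of all windows and 6.66 percent of the GC-rich ones. The CHR word was present in 2, Pds5b and Ctcf, against 17.9 percent of all windows and 6.4 percent of the GC-rich ones. In Pds5b the words of all 3 kinds overlapped in a single run that began 42 bases before the start site, and in Smc3 the YY1 word began at the first transcribed base. Smc1a held an E2F word 39 bases into the transcript and neither of the other words. The windows of Cdca5 and Ncapg each held an E2F word within 32 bases after the start site and a CHR word at most 30 bases before it. The window of Ncapd2, also called higher, held an E2F word 7 bases and a CHR word 123 bases before the start site. The window of the shugoshin gene Sgo1 (Sgol1 in the count tables), called higher as well, held none of the words, and neither did those of the uncalled loader partner Mau2 and release factor Wapl. A match is a description of the letters in these windows and shows no binding.

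The ring arms were examined first. Smc1a was at 429 and 419 CPM in NHD13 HSCs and 413 and 470 CPM in WT HSCs. The WT libraries enclosed both NHD13 libraries, and the log2 fold change was -0.06 ± 0.10 (SE; adjusted p 0.757), with a 95% interval of -0.31 to 0.20. Its sign rested on WT library 2, without which it was 0.04. Smc3 was at 219 and 182 CPM in NHD13 and 178 and 189 CPM in WT, so that the groups overlapped and NHD13 library 1 alone stood apart (0.13 ± 0.12, adjusted p 0.543). Without NHD13 library 1 the log2 fold change of Smc3 was 0. As a share of the counts of both arm genes, which does not depend on library scaling, Smc1a took 66.2 and 69.7 percent in NHD13 and 69.9 and 71.3 percent in WT. That was a mean of 67.9 ± 2.49 percent in NHD13 and 70.6 ± 1.03 percent in WT (SD, n = 2 each), a difference of -2.65 percentage points with an exact two-sided permutation p of 0.333, the smallest that 2 libraries against 2 allow. The difference was -0.887 points without NHD13 library 1 and -4.41 points without NHD13 library 2. Smc1a is X-linked, as is Stag2, and libraries differed in material of female and male origin: Xist was at 665 and 392 CPM in NHD13 and 104 and 276 CPM in WT, and the Y-linked Ddx3y at 91.9 and 124 CPM in NHD13 and 169 and 128 CPM in WT. The part of that difference in the levels of Smc1a and Stag2 was not tested.

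The kleisin gene Rad21 had the largest log2 fold change of the ring genes. Rad21 was at 90.1 and 83.3 CPM in NHD13 HSCs and 69.2 and 63.9 CPM in WT HSCs. Both NHD13 libraries were above both WT libraries, as for 7 of the 9 genes and for 30.1 percent of all genes tested. The fold was 1.3, with a 95% interval of 1.09 to 1.56 (log2 0.38 ± 0.10, unadjusted p 0.0136, adjusted p 0.102). Over 14 alternative ways of processing the log2 fold change of Rad21 stayed between 0.33 and 0.44, with an adjusted p of 0.0392 by DESeq2 and from 0.0919 to 0.358 otherwise.

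The STAG subunits Stag1 and Stag2 were higher in both NHD13 libraries without passing the test. Stag1 was at 120 and 127 CPM in NHD13 and 103 and 107 CPM in WT (log2 0.24 ± 0.09, adjusted p 0.185). Stag2, whose human counterpart is the cohesin gene most often mutated in myelodysplastic syndrome, was at 331 and 285 CPM in NHD13 and 234 and 276 CPM in WT. Its libraries came close to touching, with NHD13 library 2 next to WT library 2, and its fold of 1.21 had a 95% interval of 0.954 to 1.52 (adjusted p 0.261). Leaving out 1 library moved the log2 fold change of Stag2 from 0.27 to as low as 0.15 without WT library 1 and 0.17 without NHD13 library 1. Within the pair, Stag2 took 73.4 and 69.2 percent of counts in NHD13 and 69.6 and 72.1 percent in WT. The groups overlapped (mean 71.3 ± 2.97 percent in NHD13 and 70.8 ± 1.79 percent in WT, SD, n = 2 each; exact two-sided permutation p 1), and the difference ran from -1.63 points without NHD13 library 1 to 2.57 points without NHD13 library 2. The 3 deposited Stag2 transcripts had nearly the same counts, from 11365 to 11375 in NHD13 library 1, so the reads do not separate them.

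The loader gene Nipbl was at 186 and 174 CPM in NHD13 HSCs and 130 and 148 CPM in WT HSCs. The groups did not overlap, and the fold was 1.3 with a 95% interval of 1.07 to 1.57 (log2 0.38 ± 0.11, unadjusted p 0.0179, adjusted p 0.114, or 0.0330 by DESeq2). Its lesser transcript had 6325 and 8433 counts in NHD13 and 5578 and 5356 in WT, close to the 6407, 8523, 5650 and 5401 counts of the transcript used. Mau2, which encodes the partner of Nipbl in the loader, was at 99 and 106 CPM in NHD13 and 103 and 96 CPM in WT, and its groups overlapped (0.04 ± 0.10, adjusted p 0.814). The difference between Nipbl and Mau2 was not tested.

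The ring-bound regulators Pds5a and Pds5b were both higher in both NHD13 libraries and neither passed the test. Pds5a was at 76.3 and 67.1 CPM in NHD13 and 53.3 and 60.4 CPM in WT (log2 0.33 ± 0.12, adjusted p 0.171). Pds5b was at 154 and 132 CPM in NHD13 and 112 and 124 CPM in WT (log2 0.28 ± 0.12, adjusted p 0.223), and its log2 fold change was 0.17 without NHD13 library 1. For both, NHD13 library 1 was the highest library and WT library 1 the lowest. Pds5b took 66.9 and 66.3 percent of the pair's counts in NHD13 and 67.8 and 67.2 percent in WT. The means were 66.6 ± 0.390 percent in NHD13 and 67.5 ± 0.396 percent in WT (SD, n = 2 each), a difference of -0.93 percentage points (exact two-sided permutation p 0.333). Of the Pds5a transcript, 3.88 percent of 75-base words also occur in the transcripts Gm42727 and Gm42729, which lie opposite it, so some of its reads are uncertain.

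Ctcf, which encodes the boundary factor, was at 84.2 and 80.5 CPM in NHD13 HSCs and 62.4 and 72.6 CPM in WT HSCs. Both NHD13 libraries were above both WT libraries, and the fold was 1.22 with a 95% interval of 0.995 to 1.5 (log2 0.29 ± 0.11, adjusted p 0.195). Without WT library 1 its log2 fold change was 0.18. Exons of Agrp lie opposite those of Ctcf, but Agrp had 20 to 24 counts per library, against 2653 to 3943 for Ctcf. Ctcfl, the testis paralogue of Ctcf, had 1 and 7 counts in NHD13 and 1 and 0 in WT and did not pass the filter.

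**Figure D2:**
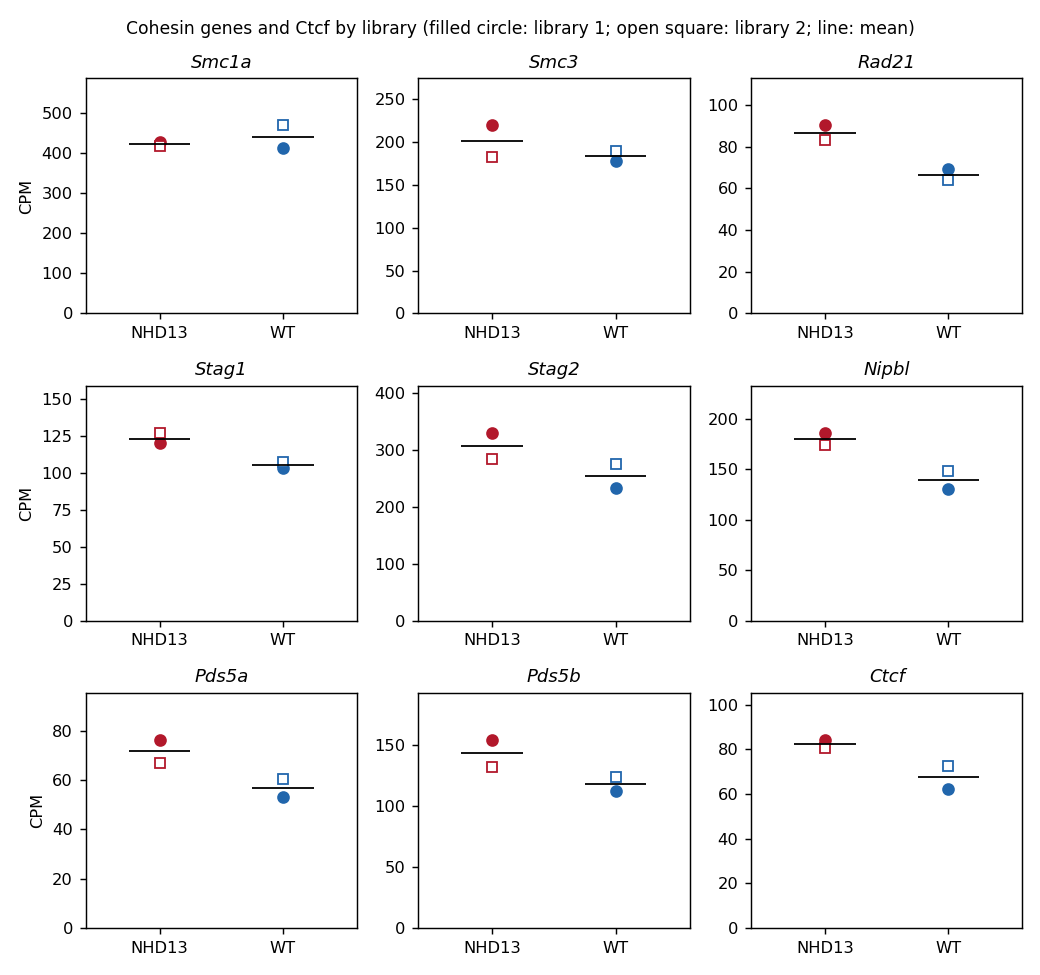
CPM of the 9 genes (vertical axes, linear, from 0) in NHD13 and WT libraries, with library 1 as a filled circle, library 2 as an open square and the group mean as a line. Both NHD13 points lie above both WT points in 7 panels, and the groups overlap for Smc1a and Smc3.

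The size of these differences was set against genes of like abundance. At an average log2 CPM of 6.01 to 8.76, the range of the 9 genes, 3333 genes were tested and 4.41 percent were called. The median standard error there was 0.11, and the smallest log2 fold change called, in either direction, was 0.51. The members' median absolute log2 fold change of 0.28 compares with 0.18 for all genes in that range. Differences of the size seen in Rad21 or Nipbl therefore lay below the smallest change that passed the test at this abundance with 2 libraries per group.

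Several genes that act on cohesin during division passed the test. Among other loading, release and meiotic genes, 1 of 6 tested was called higher and 0 lower. It was Cdca5, which encodes sororin, the protein that holds cohesin on replicated DNA. Cdca5 was at 45.7 and 41.2 CPM in NHD13 and 24.1 and 21.5 CPM in WT, a fold of 1.91 (log2 0.93 ± 0.14, adjusted p 0.0395). The call of Cdca5 ended without any 1 of the 4 libraries, with adjusted p from 0.0504 to 0.216, and with transcripts summed per gene (0.0514). Wapal, whose product opens the ring and opposes sororin, was at 149 and 150 CPM in NHD13 and 145 and 155 CPM in WT, with a 95% interval of the log2 fold change of -0.24 to 0.23. Of the meiotic paralogues, Rec8 was at 39.5 and 30 CPM in NHD13 and 24.1 and 24.7 CPM in WT (adjusted p 0.154). Smc1b was near the limit of detection, at 4 and 16 counts in NHD13 and 87 and 21 in WT (log2 -2.5 ± 0.91, adjusted p 0.168). Stag3 was low, at 2.8 to 3.01 CPM per library. Rad21l had 0 and 5 counts in NHD13 and 0 and 0 in WT and did not pass the filter. The median log2 fold change of this list was 0.02.

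Of 10 genes for the acetylation, protection and cleavage of cohesin, 2 were called higher and 0 lower, and 9 had a log2 fold change above 0 (median 0.85). Esco2, the acetyltransferase that locks cohesin in S phase, was at 76.7 and 57.8 CPM in NHD13 and 32.1 and 29.7 CPM in WT, a fold of 2.18 (adjusted p 0.0414). Its paralogue Esco1, which acts throughout the cell cycle, was at 135 and 142 CPM in NHD13 and 119 and 130 CPM in WT (log2 0.16 ± 0.10, adjusted p 0.365). Sgol1, the shugoshin that protects centromeric cohesin, was at 38.2 and 31.9 CPM in NHD13 and 18.7 and 17.6 CPM in WT (fold 1.93, adjusted p 0.0454). The calls of Esco2 and Sgol1 ended without NHD13 library 1 (log2 fold change 0.91 for Esco2 and 0.82 for Sgol1). Both calls ended as well without WT library 1 (1.17 for Esco2 and 0.99 for Sgol1) and without WT library 2 (1.07 and 0.91). They also ended with summed transcripts (adjusted p 0.0573 for Esco2 and 0.0594 for Sgol1), and that of Sgol1 with limma-voom (adjusted p 0.0501). Espl1, which encodes separase, the protease that cuts Rad21 at anaphase, was at 36.3 and 31.3 CPM in NHD13 and 13.9 and 7.55 CPM in WT (log2 1.66 ± 0.32, adjusted p 0.0603). Pttg1, the securin that inhibits separase, was the 1 gene of the list with a negative value, at 32.2 and 37.4 CPM in NHD13 and 50.2 and 50.1 CPM in WT (-0.53 ± 0.13, adjusted p 0.0838, called lower by DESeq2). The Smc3 deacetylase gene Hdac8 was at 21 and 19 CPM in NHD13 and 18.9 and 17 CPM in WT.

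Condensin, the related ring that compacts mitotic chromosomes, and the Smc5-Smc6 complex of DNA repair were compared as other SMC families. Of 14 genes 2 were called higher and 0 lower, with a median log2 fold change of 0.41. Ncapg, a condensin I subunit, was at 150 and 133 CPM in NHD13 and 45.3 and 38.8 CPM in WT, a fold of 3.36 with a 95% interval of 2.67 to 4.23 (adjusted p 0.0114). Ncapd2, also of condensin I, was at 163 and 142 CPM in NHD13 and 78.9 and 67.8 CPM in WT (fold 2.07, adjusted p 0.0297). The call of Ncapd2 ended without NHD13 library 1, where its log2 fold change was 0.96. Both calls ended when either WT library was left out. The log2 fold changes were then 1.64 and 1.86 for Ncapg and 0.95 and 1.16 for Ncapd2. The condensin arm gene Smc4 was at 483 and 315 CPM in NHD13 and 161 and 175 CPM in WT (fold 2.37, adjusted p 0.0528). The arm genes of the Smc5-Smc6 complex lay closer to the cohesin genes, with log2 fold changes of 0.26 ± 0.10 for Smc5 and 0.30 ± 0.17 for Smc6, neither of them called.

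Over all 6 lists of pathway genes, 9 of 77 tested genes were called higher and 0 lower, where 2.07 percent of all genes tested were called higher and 2.22 percent lower. Of those 9 calls, 4 belong to the list of stem cell regulators and cohesin or Ctcf targets described below. The lists were chosen with earlier results of these libraries known, so the pooled count is no independent evidence of a direction.

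**Figure D3:**
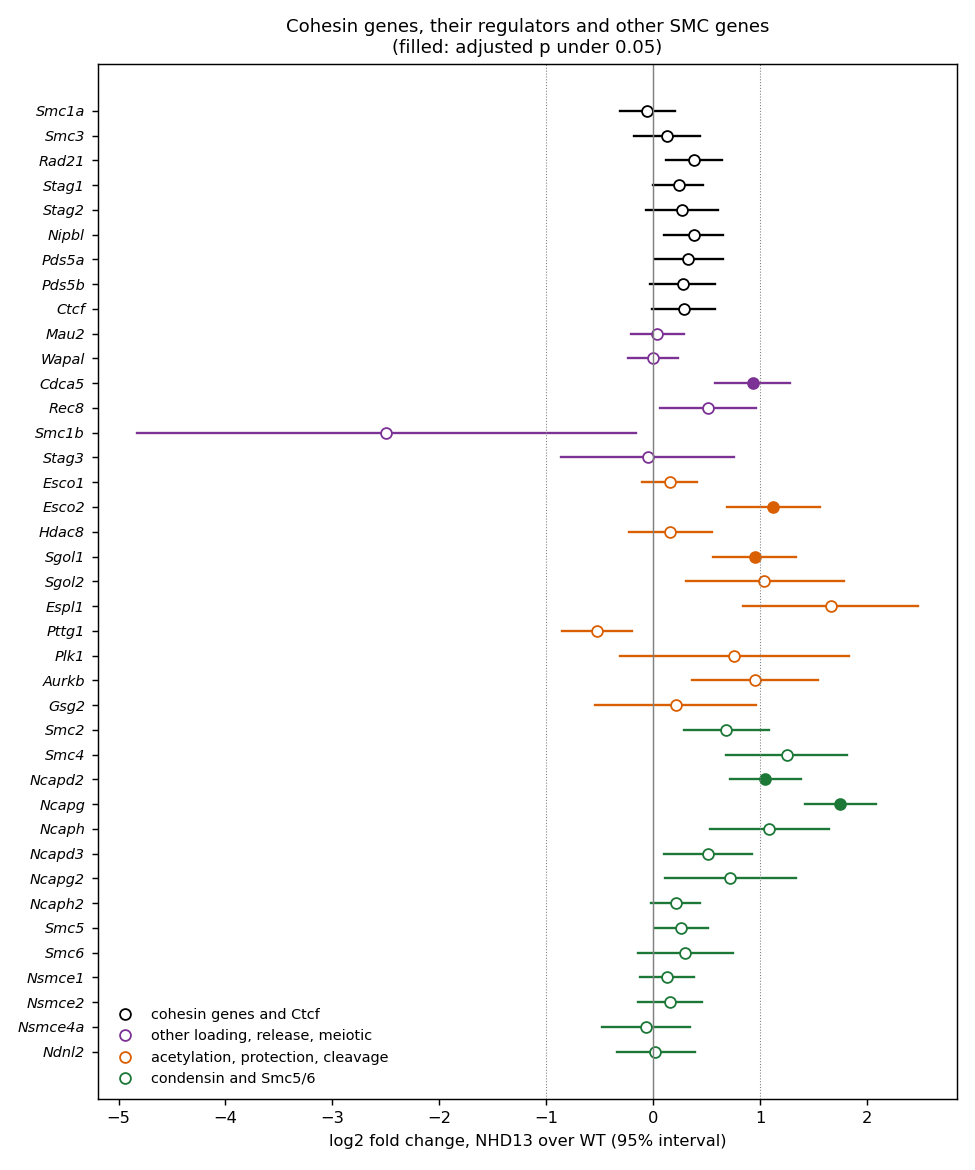
Log2 fold change of NHD13 over WT (horizontal axis) with its 95% interval for the 9 genes and for tested genes of 3 further lists, with filled points for an adjusted p under 0.05 and dotted lines at a halving and a doubling. The 9 genes lie between -0.06 and 0.38, while Cdca5, Esco2, Sgol1, Ncapd2 and Ncapg are the filled points, between 0.93 and 1.75.

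Of 13 markers of cycling cells 2 were called higher, Kif11 and Ccnb2, and 0 lower. The other 11 did not pass the test, and 13 of 13 had a log2 fold change above 0, with a median of 0.75. Their summed level was 2600 and 1970 CPM in NHD13 and 1370 and 1090 CPM in WT, so the groups did not overlap. NHD13 library 1 had the highest summed level of cycling markers and also the highest CPM of 7 of the 9 genes, Stag1 and Smc1a being highest in NHD13 library 2 and WT library 2. The WT libraries went the other way. WT library 1 had the higher cycling sum, but of the 9 genes only Rad21 was higher there than in WT library 2. The part of cycling cells in the levels of the cohesin genes was not tested.

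Other factors of chromosome boundaries and looping gave no calls by edgeR among 7 tested genes, although 2 had an unadjusted p below 0.05. DESeq2, which called 17.5 percent of all genes tested, called 1 of them and limma-voom 0. Their median log2 fold change was 0.19. Chd8, a remodeller that binds Ctcf, was at 84.1 and 78.8 CPM in NHD13 and 61.8 and 64.6 CPM in WT (log2 0.37 ± 0.10, adjusted p 0.0986). Top2b, the topoisomerase found at loop anchors, was at 142 and 103 CPM in NHD13 and 74 and 95.2 CPM in WT (adjusted p 0.183), and the looping factor gene Yy1 at 29.9 and 27.6 CPM in NHD13 and 22 and 25.1 CPM in WT (adjusted p 0.268). Neither passed the test.

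Mediator joins enhancers to the polymerase and works with Nipbl and cohesin. Among 31 genes of Mediator and enhancer cofactors edgeR called 0, although 5 had an unadjusted p below 0.05. DESeq2 called 2 of the 31, against its 17.5 percent of all genes tested, and limma-voom 0. The median log2 fold change was 0.1. The smallest p belonged to the histone acetyltransferase gene Ep300, at 28.9 and 24.3 CPM in NHD13 and 14.4 and 15.9 CPM in WT (log2 0.81 ± 0.16, adjusted p 0.0630). Cdk19, a kinase of the Mediator kinase module, was at 53.1 and 62.2 CPM in NHD13 and 36.6 and 39.7 CPM in WT (adjusted p 0.0711), followed by Med24 (0.38 ± 0.11, adjusted p 0.122).

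**Figure D4:**
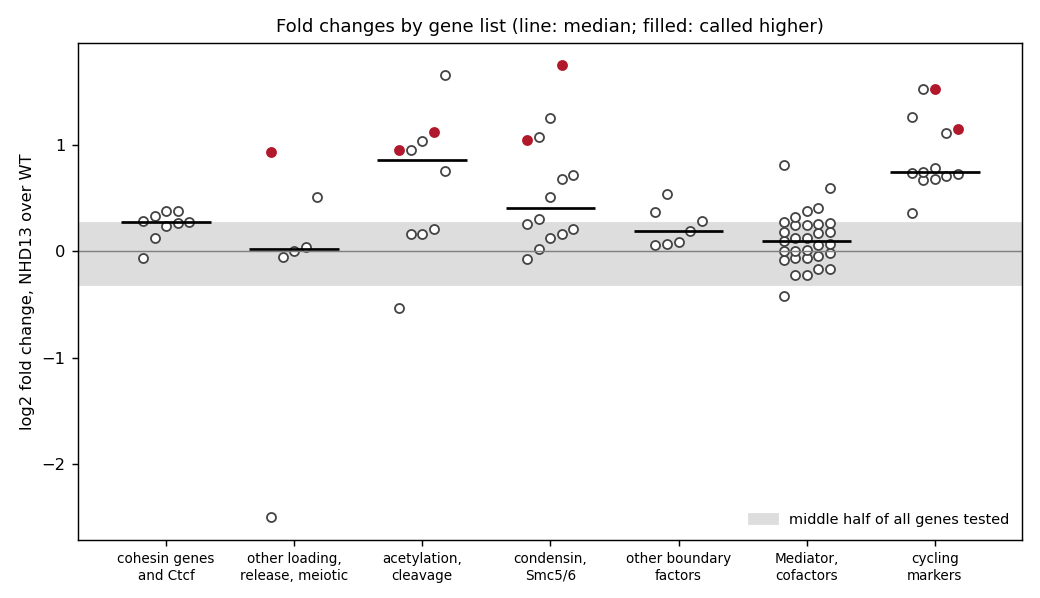
Log2 fold change of NHD13 over WT (vertical axis) of tested genes in 7 lists, each point 1 gene, with the list median as a line, red filled points for genes called higher and a grey band for the middle 50 percent of all genes tested. The median of the 9 genes is 0.28, below those of the acetylation and cleavage list (0.85), the condensin list (0.41) and the cycling markers (0.75).

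A list of stem cell regulators and of known targets of cohesin or Ctcf was examined as well. Of its 9 genes 4 were called higher, H19, Igf2, Hoxa7 and Hoxa9, and 0 lower. H19 and Igf2 share the imprinting control region at which Ctcf insulates the maternal Igf2 gene. H19 was at 44.1 and 60.1 CPM in NHD13 and 3.45 and 2.87 CPM in WT, and Igf2 at 28.2 and 51.4 CPM in NHD13 and 5.04 and 3.31 CPM in WT, so both transcripts of the locus were higher. The call of Hoxa9 ended without NHD13 library 1, where its log2 fold change was 1.29. The calls of all 4 genes ended when either WT library was left out. Their log2 fold changes then ran from 1.14 for Hoxa9 to 4.17 for H19. Among transcription factors that have been linked to cohesin mutations in human progenitors, Gata2 was at 399 and 292 CPM in NHD13 and 223 and 230 CPM in WT (log2 0.61 ± 0.17, adjusted p 0.105). Erg was at 42 and 40.8 CPM in NHD13 and 33.9 and 34.5 CPM in WT (0.27 ± 0.11, adjusted p 0.199). Runx1 was at 83.6 and 84.6 CPM in NHD13 and 94.3 and 96.4 CPM in WT (-0.18 ± 0.09, adjusted p 0.259). Of the other members below 0, the homeobox gene Meis1 was at 634 and 586 CPM in NHD13 and 861 and 975 CPM in WT, so the groups did not overlap (-0.59 ± 0.10, adjusted p 0.0511). Myc was at 319 and 115 CPM in NHD13 and 278 and 296 CPM in WT (-0.41 ± 0.47, adjusted p 0.631). DESeq2 called 1 gene of this list lower, as did edgeR without a filter, with the 1 CPM filter or with library totals. The list was chosen with earlier results of these libraries known, so its count is no independent evidence of a direction.

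The genes whose 4 library values most resembled those of 3 members were found by the root mean square difference in log2 CPM centred on each gene's mean, among the 9995 other genes that reached an average log2 CPM of 3. For Stag2 they were Nlgn2, Ttll5 and Gmfb, with differences of 0.00827 to 0.0133. For Rad21 they were Mtmr4, Dtx3 and 2610507B11Rik (0.00873 to 0.0133), and for Ctcf they were Becn1, Gon4l and Trit1 (0.00695 to 0.0134). None of the 9 members was among them. With 4 libraries and 9995 genes such close matches describe these libraries alone.

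**Figure D5:**
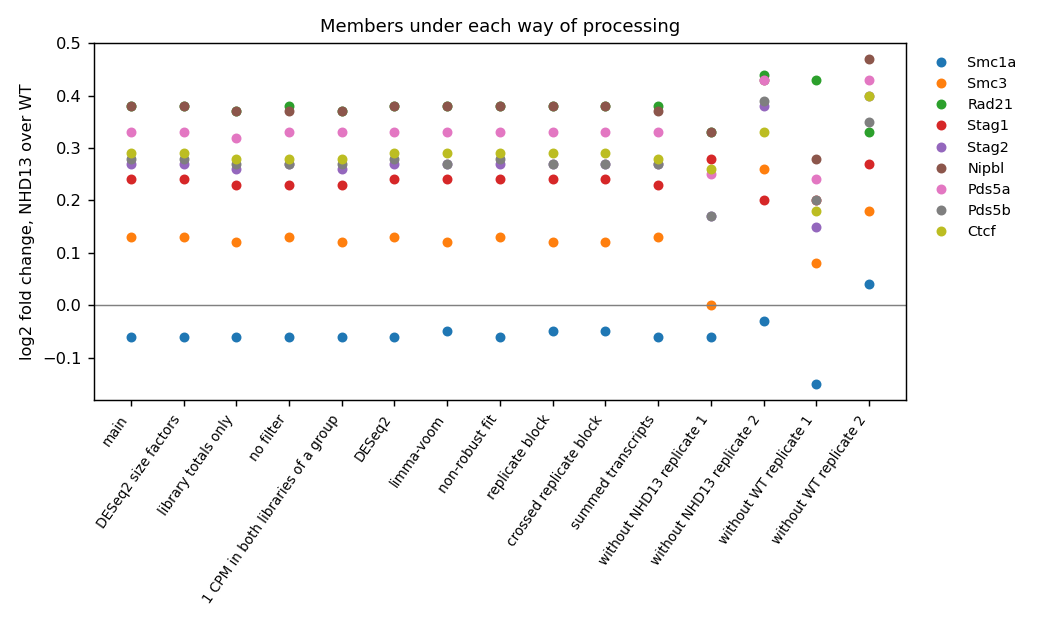
Log2 fold change of NHD13 over WT (vertical axis) of each of the 9 genes under the reported processing, first on the left, and under each of 14 alternatives along the horizontal axis. Changing the scaling, filter, test or block moves the points little, whereas leaving out 1 library moves the median of the 9 genes to between 0.20 and 0.38, and Smc1a lies below 0 except without WT replicate 2.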

How the data were processed

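Sorted cells were lysed for RNA with Trizol, cDNA libraries were made by SMARTer low-input amplification, and paired reads of 75 bases were produced on a HiSeq, per the labels' protocols. The submitters' processing notes name Bowtie 0.12.2 and the mouse build mm9. The sources used here do not give the counting program or its use of strand. As the values show, the deposited measurements are unnormalised whole-number counts, 1 for each RefSeq transcript.

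Each symbol was represented by its transcript with the highest total count. NHD13 was tested against WT over all 4 libraries by edgeR 4.0.16 in R 4.3.3 (TMM scaling, default low-count filter, robust quasi-likelihood fit). P-values were adjusted over all genes tested by the Benjamini-Hochberg method, with a threshold of 0.05. CPM were scaled by TMM-adjusted library totals, a standard error is the size of the log2 fold change divided by the square root of F, and intervals use the test's degrees of freedom. The test was checked on simulated data. Alternatives used DESeq2 1.42.0 and limma 3.58.1, and one with crossed replicate numbers was added after seeing the data.

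The 9 genes and the lists were chosen with earlier results of these data known. Named genes were every member, every called gene of the pathway lists or otherwise its 3 with the smallest p, and up to 3 called genes of each marker list. Mau2, Wapal, Rec8, Smc1b, Stag3, Esco1, Espl1, Pttg1, Hdac8, Smc4, Smc5, Smc6, Meis1, Myc, Kit, Slamf1, Ly6a, Prtn3, Ms4a2, Cpa3, Klrb1c, Cd3e, Cd3g, Gzmb, Cd3d, Gzma, Cd48, Gata2, Erg, Runx1, Rad21l, Ctcfl and Agrp were named after their values were seen. Promoter windows come from RefSeq tables of build GRCm38.p6, and the GENCODE M21 annotation gave transcript lengths, shared 75-base words and exons on opposite strands.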

Additional observations from a re-analysis of the deposited data

How the results depend on the processing

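The count of genes called over the whole table was 636, against 1138 without a filter, 1066 with at least 1 CPM in both libraries of a group, 2604 by DESeq2, 402 with summed transcripts, and 0 to 990 when 1 library was left out. Called genes of the pathway lists numbered 9, against 15 without a filter, 14 with the 1 CPM filter, 23 by DESeq2, 6 with summed transcripts and 0 to 12 when 1 library was left out. Where a library was left out, the spread came from the other group alone, and the lone library was assumed to vary like it. Among alternatives that kept all 4 libraries, the count of 0 members called held in all except DESeq2. DESeq2 called 2, Rad21 (log2 fold change 0.38, adjusted p 0.0392) and Nipbl (0.38, adjusted p 0.0330). Fits with 1 library left out are set aside for that count, since their spread came from the other group alone. The 1 reversal of sign among the members was that of Smc1a, from -0.06 to 0.04 without WT replicate 2, with a range of -0.15 to 0.04 when 1 library was left out. The cause of these changes was not tested. The labels give both groups the numbers 1 and 2 without saying that a number marks a shared source, and deviations of same-numbered libraries had a correlation of -0.125 over genes. With the replicate number as a block, 107 genes, 2 pathway genes and 0 members were called. With the numbers crossed, 647 genes, 9 pathway genes (7 of the 9 above) and 0 members were called. With 2 libraries per group, counting error is small for these genes, at 2207 counts or more per library, and the spread between libraries sets the precision.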
